A study of Mus musculus with 6 samples.

Results

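The 37 genes described here repair DNA double-strand breaks and interstrand crosslinks or signal that such damage is present. They were taken by symbol from the deposited table of RPKM values (reads scaled to transcript length and to the size of the library), which holds 20856 mouse genes with values, and each of the 37 symbols occurs there once. Double-strand breaks are repaired by homologous recombination, which copies the sister chromatid after the ends have been resected to single strands, or by non-homologous end joining, which holds the ends together and ligates them. In the Fanconi pathway a nuclear core complex attaches ubiquitin to FANCD2 and FANCI at a stalled fork, and the crosslink is then cut out and handed to recombination. Recombination, resection and the Fanconi steps are most active in S and G2 phase, and many of their genes are transcribed most in dividing cells, whereas end joining works throughout the cell cycle.

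RNA-seq was performed on 6 cell lines, derived from separate liver tumors of mice. The tumors arose in C57BL/6 mice (females of 8 to 10 weeks per the study's methods) whose livers had received, by hydrodynamic tail vein injection, a *Myc* transposon and a pX330 plasmid that transiently expresses Cas9 with a guide RNA. The guide targeted *Trp53* in 3 lines (*Myc*; sg*Trp53*, labelled Myc;sgp53/Cas9) and *Kmt2c*, the gene of the histone methyltransferase MLL3, in the other 3 (*Myc*; sg*Kmt2c*, labelled Myc;sgMll3/Cas9). All 6 lines thus carry the *Myc* transposon, and no line without a guide was compared, so a difference between the genotypes has no wild-type reference. The cells were cultured untreated in DMEM with 10% FBS on collagen until no fibroblasts were visible. Per the study's methods, no mouse gave more than 1 of the lines of a genotype. The deposited labels of sg*Kmt2c* replicates 2 and 3 nevertheless share a number, which those of the other lines do not, and their meaning is not stated. As a check, these lines were also counted as 1 sample.

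The recovered depth was 5312182 to 6878625 reads in the sg*Trp53* libraries and 3680068 to 4704539 in the sg*Kmt2c* libraries. *Trp53* was at 17.2, 17.6 and 19.4 RPKM with sg*Trp53* and at 92.2, 124 and 121 RPKM with sg*Kmt2c*, so the genotypes separated at this gene. *Kmt2c* RNA overlapped between the genotypes, at 24.2, 18.4 and 19.2 against 19.7, 25.0 and 9.51 RPKM, and its level does not show whether the protein is intact. Sg*Kmt2c* replicate 1 stood apart from the other lines in cell type markers. Its summed level of 7 hepatocyte markers was 1214 RPKM against 1.96 to 172 elsewhere, nearly all of it *Hnf4a* (1186 RPKM), while *Alb*, the defining product of hepatocytes, was at 4.36 RPKM there and at 0.644 to 1.60 in the others. The length listed for *Hnf4a* was 9.88% of its longest coding transcript, against 100% for *Alb*. A short listed length can raise RPKM beside other genes, but not between lines. The sum of 5 biliary or progenitor markers was 3468 RPKM in sg*Kmt2c* replicate 1 and 90.9 to 1008 in the others. Of these, *Krt19* (1866 RPKM), *Krt7* (990 RPKM, with a listed length of 16.9% of the longest) and *Epcam* (27.0 RPKM) were highest in that line. *Spp1* (578 RPKM) and *Sox9* (6.36 RPKM) lay there within the range of the other lines. The sum of 7 fibroblast or mesenchymal markers was 0.282 RPKM in that line against 15.0 to 986. Immune markers (6 genes) summed to at most 17.8 RPKM with *Cd3e* at 0 in every line, and endothelial markers (5 genes) to at most 0.302 RPKM. The sign counts and medians below are therefore also given without it.

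The stretch of promoter that lies upstream of the annotated start is shown for 4 of the genes, so that the motif letters counted below can be seen in place. RefSeq windows (GRCm38.p6, 250 bases before to 50 after the start) matched 29 of the 37 genes with 31 windows. The 4 were chosen after their values were seen, from windows whose upstream bases overlap no other annotated gene. *Mdc1* was lower in all sg*Kmt2c* lines, *Brca2* and *Fancg* hold E2F letters, and *Xrcc5* was among the genes that were not low in sg*Kmt2c* replicate 1. Each line gives the 250 upstream bases 5′ to 3′ on the gene's strand, and the capitals mark every match, on either strand, to E2F letters (TTTCCCGC, TTTCGCGC, TTTGCCGC or TTTGGCGC), CHR letters (TTTGAA or the form TTTAAA, also TTCGAA and the form TTCAAA) or CCAAT.
Mdc1 chr17:35841248-35841497 (+ strand): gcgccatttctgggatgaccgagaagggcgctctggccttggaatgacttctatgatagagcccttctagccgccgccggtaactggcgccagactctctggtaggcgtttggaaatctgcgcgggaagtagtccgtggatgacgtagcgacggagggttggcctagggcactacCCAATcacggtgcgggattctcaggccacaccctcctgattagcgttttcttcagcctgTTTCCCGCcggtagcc
Brca2 chr5:150522371-150522620 (+ strand): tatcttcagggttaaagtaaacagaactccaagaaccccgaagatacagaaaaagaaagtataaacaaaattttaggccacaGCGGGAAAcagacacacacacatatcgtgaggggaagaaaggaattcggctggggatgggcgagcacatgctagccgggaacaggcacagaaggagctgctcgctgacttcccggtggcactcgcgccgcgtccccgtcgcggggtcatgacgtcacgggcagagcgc
Fancg chr4:43010302-43010551 (- strand): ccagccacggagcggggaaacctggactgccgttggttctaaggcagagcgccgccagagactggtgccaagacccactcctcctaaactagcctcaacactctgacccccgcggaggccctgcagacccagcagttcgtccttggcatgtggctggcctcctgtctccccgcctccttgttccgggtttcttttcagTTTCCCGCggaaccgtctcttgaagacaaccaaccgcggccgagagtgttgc
Xrcc5 chr1:72307171-72307420 (+ strand): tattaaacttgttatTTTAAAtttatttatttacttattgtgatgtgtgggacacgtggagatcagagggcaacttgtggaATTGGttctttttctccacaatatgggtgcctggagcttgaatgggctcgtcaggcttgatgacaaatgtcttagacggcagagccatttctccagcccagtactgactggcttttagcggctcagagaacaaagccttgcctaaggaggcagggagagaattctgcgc

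In *Mdc1* the capitals are a CCAAT followed by E2F letters near the start, in *Brca2* and *Fancg* E2F letters alone, and in *Xrcc5* CHR letters and a CCAAT on the other strand. E2F letters were present in 6 of the 31 windows (19.4%), against 2.26% of all 32851 mouse windows and 4.04% of the 10937 windows of genes tested for expression. The 6 genes were *Mdc1*, *Brca2*, *Fancg*, *Chek2*, *Bard1* and *Xrcc6*. CCAAT was present in 20 of 31 windows (64.5%), against 37.4% of all and 38.0% of the tested windows. By gene it was present in 19 of 29, since *Rad54l* has nearly identical windows that hold the same CCAAT. CHR letters were present in 6 of 31 (19.4%), against 28.8% and 20.7%. The E2F and CCAAT shares were above those of both sets of windows. The CHR share was below that of all windows and close to that of the tested windows. The windows were also split by the expression pattern described next. The 23 windows of the 22 genes lowest in sg*Kmt2c* replicate 1 held E2F letters in 6, CCAAT in 17 and CHR letters in 2. Both *Rad54l* windows are among those with CCAAT. The 8 windows of the remaining 7 genes held E2F letters in 0, CCAAT in 3 and CHR letters in 4. These are matches of letters, with no measurement of binding, and the split uses the expression values themselves.

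All 37 genes passed the filter on low values (at least 1 RPKM in at least 3 of 6 lines), with 18 to 1298 reads per gene and line. None passed an adjusted p-value of 0.05 between the genotypes (limma on log2(RPKM + 1), Benjamini-Hochberg over 11617 genes), where 15 of all genes did (0.129%). None passed an unadjusted p-value of 0.05 either, against 8.58% of all genes, and limma voom on the recovered reads gave 0 by both rules. The log2 fold change, sg*Kmt2c* against sg*Trp53*, was above 0 in 11 genes and below 0 in 26, with a median of −0.31 (−0.09 over all genes) and a range from −0.85 (*Mdc1*) to 0.71 (*Fancl*). In 2 genes, *Brip1* and *Mdc1*, every sg*Kmt2c* line was below every sg*Trp53* line, and in 0 genes every one was above, where the shares over all genes were 10.4% and 5.72%. For 3 lines against 3 the smallest exact permutation p-value is 0.1, which both genes had (two-sided). After rescaling by median-of-ratios or quantiles, or with limma voom, *Brip1* overlapped and 1 gene, *Mdc1*, was still lower without overlap, while 2 were higher without overlap, *Fancf* with *Xrcc5* or, under quantiles, with *Fancl*. The shares over all genes were not counted after rescaling. The 95% interval of the fold change stayed within a log2 change of 1 either way in 8 genes and reached beyond it in 29, so for most of them a difference of that size lay within the error of these lines.

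The sg*Kmt2c* lines differed among themselves more than the sg*Trp53* lines did. Sg*Kmt2c* replicate 1 had the lowest level of the 6 lines in 28 of the 37 genes, a share of 75.7% where it was the lowest line for 35.4% of all genes tested. In that line the median gene stood at 41.9% of the sg*Trp53* mean, and 21 genes were below 50% of it (20.0% of all genes tested). In sg*Kmt2c* replicates 2 and 3 the median gene stood at 106% and 112% of the sg*Trp53* mean, with 1 and 0 genes below 50%. Over all genes tested the medians in these replicates were 93.8% and 96.5%, with 11.2% and 8.83% of genes below 50%. The SD between lines on the log2 scale had a median of 0.251 in sg*Trp53* and 0.620 in sg*Kmt2c*, and was larger in sg*Kmt2c* for 32 of 37 genes, against 0.255 and 0.412 with 70.7% larger over all genes. In bulk RNA, fewer cells of a kind and less RNA per cell cannot be told apart, and this applies to every level given here.

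**Figure D1:**
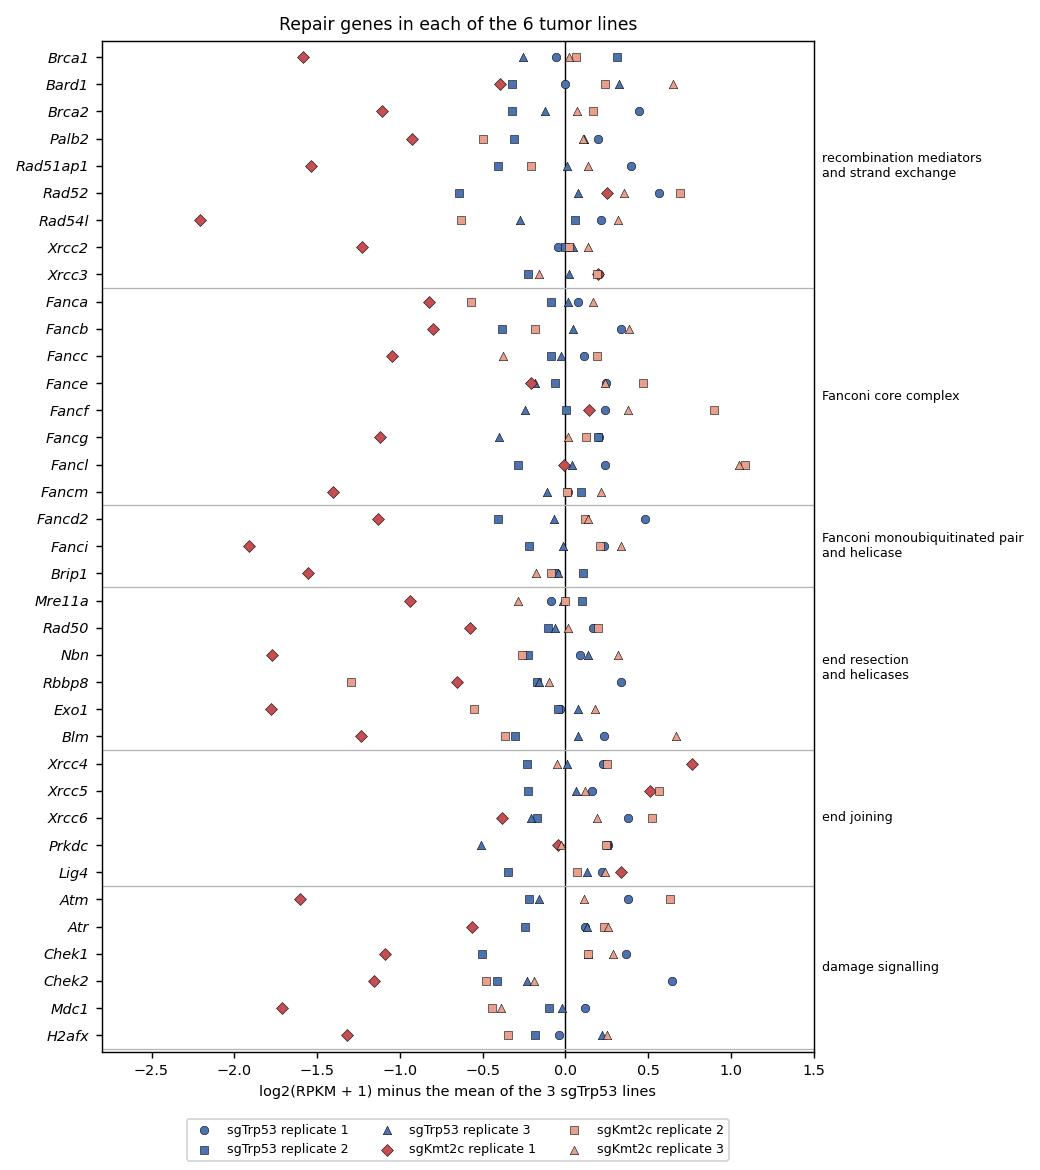
The 37 repair genes in rows, grouped by role, with log2(RPKM + 1) minus the mean of the 3 sgTrp53 lines on the x axis; each symbol is 1 line. Sg*Kmt2c* replicate 1 (red diamonds) is the lowest line in 28 rows, and 4 of the 5 end joining genes are among the exceptions.

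The genes of recombination mediators and strand exchange had the lowest levels in sg*Kmt2c* replicate 1 in 7 of 9 cases. *Brca1*, which promotes resection and recruits the loading machinery, was at 11.8, 15.6 and 10.2 RPKM with sg*Trp53* and at 3.46, 13.0 and 12.5 RPKM with sg*Kmt2c*. Its other sg*Kmt2c* lines thus lay within the sg*Trp53* range, and the log2 fold change was −0.50 (95% interval −1.64 to 0.65) with all lines and 0.04 without replicate 1. *Brca2*, a mediator of strand exchange, was at 7.23, 3.84 and 4.55 against 1.80, 5.79 and 5.34 RPKM. *Palb2*, which bridges BRCA1 and BRCA2, was at 6.79, 4.48 and 6.35 against 2.57, 3.82 and 6.31 RPKM, so its second sg*Kmt2c* line was also below the sg*Trp53* range. *Rad54l*, a motor protein of strand invasion, had the lowest relative level of all 37 genes. It was at 11.3, 10.1 and 7.78 RPKM with sg*Trp53* and at 1.30, 5.87 and 12.2 RPKM with sg*Kmt2c*, so that replicate 1 held 13.4% of the sg*Trp53* mean while replicate 3 was the highest of the 6 lines. The read count of *Rad54l* can be affected by the overlapping *Lrrc41*, since the handling of strand and of shared reads in the counting is not stated. *Rad51ap1* and *Xrcc2*, which assist strand exchange, stood at 28.4% and 31.8% of the sg*Trp53* mean in replicate 1, and *Bard1*, the partner of BRCA1, at 67.9%.

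The exceptions in this group were *Rad52*, an annealing protein, and *Xrcc3*, which also acts in strand exchange. *Rad52* was at 37.1, 15.5 and 26.1 RPKM with sg*Trp53* and at 29.7, 40.5 and 31.8 RPKM with sg*Kmt2c*, a log2 fold change of 0.43 (95% interval −0.37 to 1.23). *Xrcc3* was at 7.49, 5.31 and 6.50 against 7.47, 7.43 and 5.59 RPKM, and it overlaps *Klc1*. In neither gene did replicate 1 fall outside the range of the sg*Trp53* lines. The log2 fold change was below 0 in 6 of the 9 recombination genes (median −0.36), and without replicate 1 in 3 of them (median 0.04).

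Of the 8 genes of the Fanconi core complex, 6 were lowest in sg*Kmt2c* replicate 1. *Fancm*, the translocase that anchors the complex to DNA, was at 4.74, 5.08 and 4.26 RPKM with sg*Trp53* and at 1.15, 4.71 and 5.60 RPKM with sg*Kmt2c*. Replicate 1 thus had 24.4% of the sg*Trp53* mean, while replicate 2 lay within the sg*Trp53* range and replicate 3 above it. The scaffold genes *Fanca*, *Fancb*, *Fancc* and *Fancg* stood at 51.3%, 47.0%, 40.4% and 35.9% of the sg*Trp53* mean in that line. *Fanca* was also below the sg*Trp53* range in replicate 2 (5.32 against 7.84 to 8.88 RPKM) and *Fancc* in replicate 3 (4.87 against 6.17 to 7.25 RPKM). *Fance*, which joins the core complex to FANCD2, was nearly level with the sg*Trp53* lines there, at 10.9 RPKM against 11.1 to 15.3.

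*Fancl*, the ubiquitin ligase subunit of the core complex, had the highest fold change of the 37 genes. It was at 2.23, 1.24 and 1.81 RPKM with sg*Trp53* and at 1.71, 4.78 and 4.64 RPKM with sg*Kmt2c*. Replicates 2 and 3 were above every sg*Trp53* line and replicate 1 was within their range. The log2 fold change was 0.71 (95% interval −0.21 to 1.62, adjusted p = 0.641 from limma), and 1.06 without replicate 1 (95% interval 0.34 to 1.78, unadjusted p = 0.0112, adjusted p = 0.404 from limma). *Fancl* had 18 to 54 reads in the lines other than sg*Kmt2c* replicate 1, where it had 22, and it overlaps *Vrk2*. *Fancf*, an adaptor within the core complex, was at 5.43, 4.45 and 3.60 against 5.02, 9.14 and 6.09 RPKM, with replicates 2 and 3 above every sg*Trp53* line; it overlaps *Gas2*. The log2 fold change was below 0 in 5 of the 8 core complex genes (median −0.26), and without replicate 1 in 2 of them (median 0.10).

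*Fancd2* and *Fanci*, whose products are the ubiquitinated pair, and *Brip1*, the helicase bound to BRCA1, were all lowest in sg*Kmt2c* replicate 1. *Fanci* was at 59.0, 42.8 and 49.5 RPKM with sg*Trp53* and at 12.5, 58.0 and 63.5 RPKM with sg*Kmt2c*. Its mean was 50.4 ± 8.15 RPKM (SD, n = 3) in sg*Trp53* and 44.7 ± 28.0 RPKM (SD, n = 3) in sg*Kmt2c*, with the second spread made by a single line. *Fancd2* was at 12.1, 6.07 and 7.93 against 3.27, 9.20 and 9.29 RPKM. *Brip1* was at 4.33, 4.96 and 4.38 RPKM with sg*Trp53* and at 0.888, 4.23 and 3.92 RPKM with sg*Kmt2c*. Its genotypes did not overlap, but replicate 2 of sg*Kmt2c* lay just under the lowest sg*Trp53* line. The log2 fold change of *Brip1* was −0.61 (95% interval −1.64 to 0.43, adjusted p = 0.715 from limma), and −0.13 without replicate 1. The 3 genes had log2 fold changes below 0 (median −0.45), and without that line 1 of them did, *Brip1* (median 0.13).

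All 6 genes of end resection and the associated helicases had a log2 fold change below 0, 3 of them also without sg*Kmt2c* replicate 1 and the other 3 above 0 then. Of the 6, 5 were lowest in sg*Kmt2c* replicate 1. *Mre11a* and *Rad50*, the nuclease and the tether of the MRN complex, stood at 50.4% and 64.9% of the sg*Trp53* mean in that line, and *Nbn*, its regulatory subunit, at 23.8%. *Nbn* was at 14.2, 11.2 and 14.7 RPKM with sg*Trp53* and at 3.18, 10.9 and 16.8 RPKM with sg*Kmt2c*, so the 3 subunits of this complex were not low to the same degree. *Exo1*, the exonuclease of long-range resection, was at 7.11, 7.04 and 7.73 against 1.42, 4.66 and 8.37 RPKM. *Blm*, the helicase that dissolves double Holliday junctions, was at 12.6, 8.38 and 11.2 against 3.92, 8.02 and 17.5 RPKM. Both genes ran in the same order across the sg*Kmt2c* lines, with replicate 1 the lowest and replicate 3 the highest of the 6. *Rbbp8*, whose product CtIP starts resection, differed in its pattern: it was at 26.2, 18.2 and 18.3 RPKM with sg*Trp53* and at 12.7, 7.80 and 19.2 RPKM with sg*Kmt2c*. Its lowest line was sg*Kmt2c* replicate 2, and its log2 fold change of −0.68 (95% interval −1.51 to 0.15, adjusted p = 0.630 from limma) became −0.70 without replicate 1. The median of the 6 genes was −0.49, and −0.06 without replicate 1.

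The 5 end joining genes had the opposite sign, with a log2 fold change above 0 in each, with and without sg*Kmt2c* replicate 1, and a median of 0.22 (0.16 without it). *Xrcc5*, which encodes the Ku80 subunit of the end-binding ring, was at 28.7, 21.8 and 26.8 RPKM with sg*Trp53* and at 36.9, 38.3 and 27.8 RPKM with sg*Kmt2c*. Replicates 1 and 2 of sg*Kmt2c* were above every sg*Trp53* line and replicate 3 was below the highest of them. The log2 fold change was 0.40 (95% interval −0.12 to 0.91, adjusted p = 0.641 from limma). *Xrcc6*, which encodes the partner Ku70, was at 123, 83.5 and 81.4 against 72.2, 136 and 108 RPKM, the only gene of this group that was lowest in sg*Kmt2c* replicate 1. *Xrcc4*, the scaffold of the ligase, was highest in that line, at 4.84 RPKM against 1.92 to 3.09 elsewhere. *Lig4*, the ligase itself, was also highest there, at 7.24 RPKM against 4.12 to 6.71, with the line next to it close behind. *Prkdc*, the DNA-dependent protein kinase, was at 23.2, 23.1 and 13.3 against 18.6, 23.0 and 18.9 RPKM. In sg*Kmt2c* replicate 1 the median end joining gene stood at 129% of the sg*Trp53* mean, next to 41.9% over all 37 genes and 87.5% over all genes tested, and the 95% interval stayed within a log2 change of 1 for 4 of the 5. The sign of *Xrcc6* turned without sg*Kmt2c* replicate 2 (log2 fold change −0.09), and that of *Prkdc* did so without the same line (−0.04) or without sg*Trp53* replicate 3 (−0.20).

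All 6 genes of damage signalling were lowest in sg*Kmt2c* replicate 1 and had a log2 fold change below 0 (median −0.38). Without that line 3 of them were below 0 and 3 above (median 0.08), and with all lines *Atr* turned just above 0 under median-of-ratios scaling, quantile normalization and limma voom. *Mdc1*, the mediator that binds phosphorylated H2AX and spreads the signal, was at 28.4, 24.3 and 25.7 RPKM with sg*Trp53* and at 7.26, 18.9 and 19.7 RPKM with sg*Kmt2c*. Every sg*Kmt2c* line was below every sg*Trp53* line, and *Mdc1* had the smallest p-value of the 37 genes. Its mean was 26.1 ± 2.12 RPKM (SD, n = 3) in sg*Trp53* and 15.3 ± 6.95 RPKM (SD, n = 3) in sg*Kmt2c*, a log2 fold change of −0.85 (standard error 0.38, unadjusted p = 0.0628, adjusted p = 0.597 from limma). Without replicate 1 the log2 fold change was −0.42 (95% interval −0.86 to 0.03, adjusted p = 0.567 from limma), so the sign held and the size was smaller. *H2afx*, the gene of that histone variant, was at 95.6, 86.2 and 115 against 38.6, 77.0 and 117 RPKM. *Atm*, the kinase that answers to double-strand breaks, was at 15.9, 10.2 and 10.7 against 3.29, 19.1 and 13.0 RPKM. *Atr*, the kinase that answers to single-stranded DNA, was at 33.1, 25.5 and 33.4 against 20.3, 36.0 and 36.5 RPKM. Replicate 1 thus held 26.8% of the sg*Trp53* mean of *Atm* and 66.0% of that of *Atr*, while the other sg*Kmt2c* lines exceeded the sg*Trp53* mean of both genes. Of the checkpoint kinases downstream, *Chek1* was at 12.4, 6.29 and 10.4 against 3.86, 10.4 and 11.6 RPKM and *Chek2* at 122, 57.9 and 65.9 against 34.3, 55.4 and 67.8 RPKM.

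Levels between genes are comparable only with care. RPKM divides by a single listed transcript length, which was under 50% of the longest coding transcript for *Rad52*, *Fanci*, *Xrcc6*, *Prkdc*, *Atr* and *Chek2*. The high RPKM of those 6 genes beside the rest can come from that divisor, which is the same in every line and leaves comparisons between lines as they are. Another gene of the table overlaps 15 of the 37, so their read counts can be affected by that gene, in a direction that is not known: *Bard1*, *Palb2*, *Rad54l*, *Xrcc3*, *Fanca*, *Fancc*, *Fancf*, *Fancl*, *Fancd2*, *Fanci*, *Nbn*, *Blm*, *Xrcc4*, *Xrcc6* and *Atr*.

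**Figure D2:**
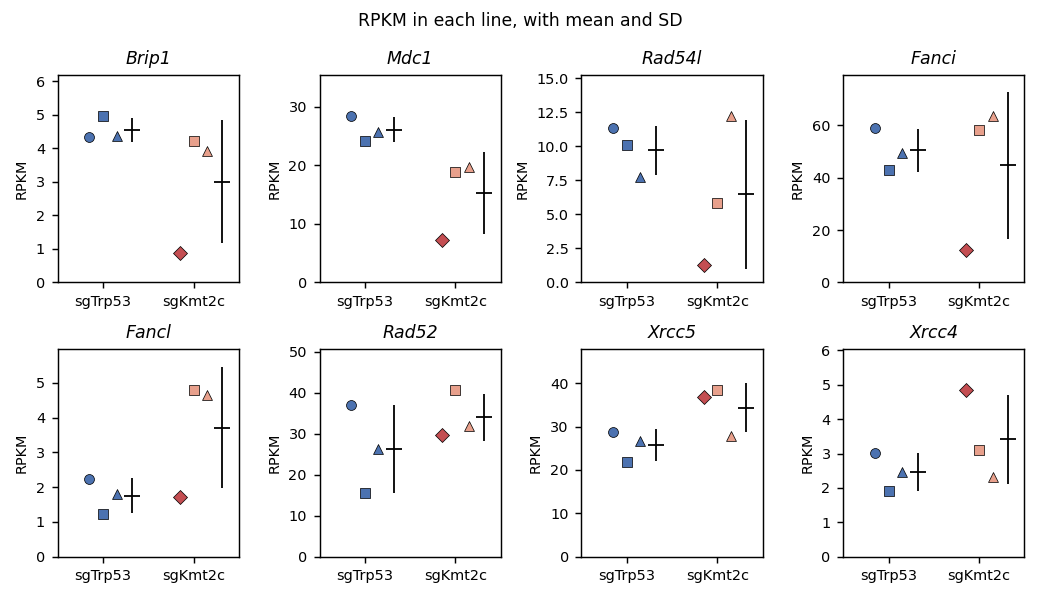
RPKM on the y axis of each panel for 8 genes in the 3 sgTrp53 lines (blue) and the 3 sgKmt2c lines (red diamond for replicate 1, light red for replicates 2 and 3); black bars give the mean and SD of each genotype. *Brip1*, *Mdc1*, *Rad54l* and *Fanci* have their lowest point in sg*Kmt2c* replicate 1, *Fancl* is high in replicates 2 and 3 only, and *Rad52*, *Xrcc5* and *Xrcc4* have no low point there.

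Without sg*Kmt2c* replicate 1 the comparison of the genotypes changed sign for 14 of the 37 genes. The median log2 fold change was then 0.10 (−0.04 over all 11402 genes tested), with 25 genes above 0 and 12 below. *Fancl* was the only gene past an unadjusted p-value of 0.05, so that 1 of 37 was higher where 3.87% of all genes were, and 0 of 37 were lower where 5.35% were. No gene passed the adjusted threshold (limma). The 95% interval stayed within a log2 change of 1 in 28 genes and beyond it in 9. *Brip1* and *Mdc1* remained without overlap and lower (2 of 37, against 15.9% of all genes), and *Atr*, *Fancf* and *Fancl* were then without overlap and higher (3 of 37, against 10.8%). Without sg*Kmt2c* replicate 3, 5 genes were lower at an unadjusted p-value under 0.05 (*Rad54l*, *Fanca*, *Exo1*, *Rbbp8* and *Mdc1*), against 8.61% of all genes, and *Xrcc5* was higher, against 4.11%. In that setting 11 genes were lower without overlap, against 21% of all genes, and the smallest adjusted p-value was 0.325 (limma). Without sg*Kmt2c* replicate 2, *Mdc1* alone passed the unadjusted threshold (log2 fold change −1.05, unadjusted p = 0.0482 from limma), 1 lower gene of 37 against 5.18% of all genes.

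**Figure D3:**
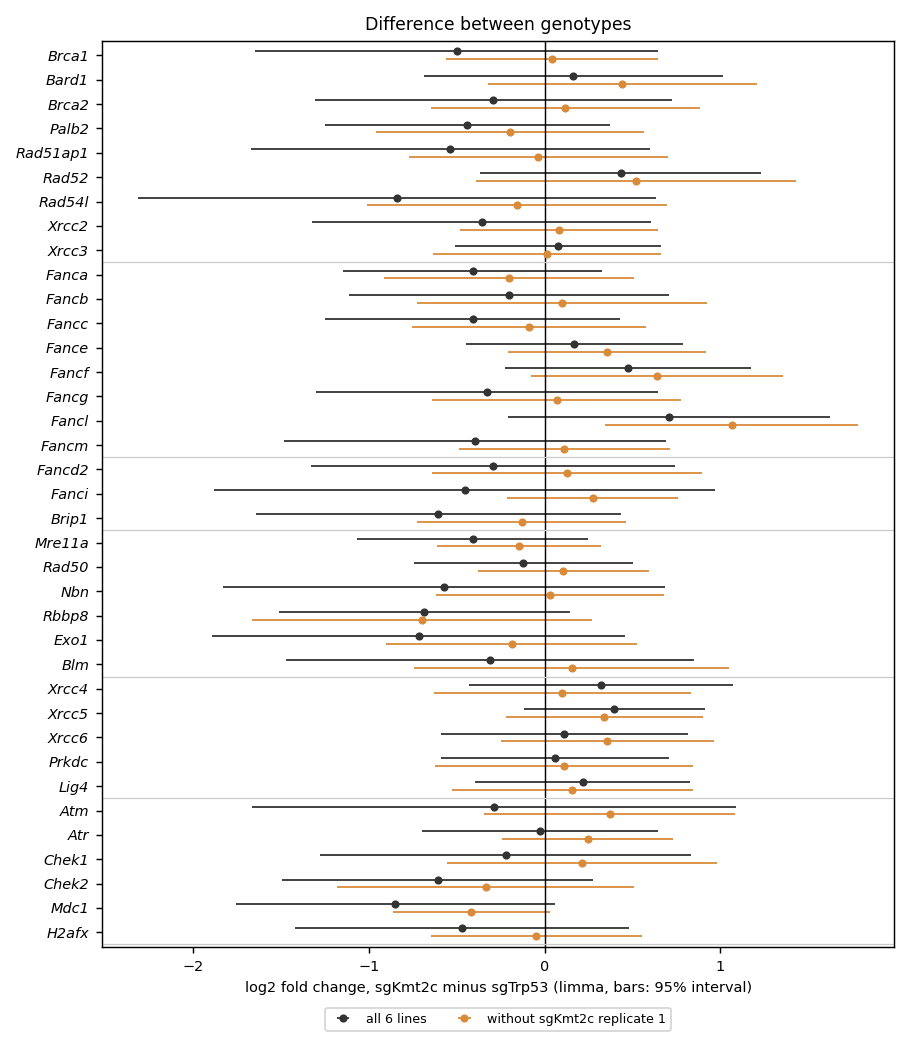
Log2 fold change on log2(RPKM + 1), sgKmt2c minus sgTrp53, on the x axis for each of the 37 genes; points are limma estimates and bars 95% intervals, with all 6 lines (black) and without sgKmt2c replicate 1 (orange). All 37 black intervals cross 0, and of the orange ones that of *Fancl* does not.

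Proliferation markers moved with the same line. For 25 such genes the summed RPKM was 2117, 2040 and 2126 with sg*Trp53* and 807, 1814 and 2412 with sg*Kmt2c*. Of the 25, 21 were lowest in sg*Kmt2c* replicate 1, and their median log2 level relative to the sg*Trp53* mean was −1.26 there, next to −1.05 for the 37 repair genes and −0.15 for all genes tested. In replicates 2 and 3 this median was −0.20 and 0.16, against 0.12 and 0.14 for the repair genes. The part of proliferation, or of the cell type markers given above, in the levels of the repair genes was not tested. Only *Ccnb2*, a mitotic cyclin, passed an unadjusted p-value of 0.05 between the genotypes (limma), 1 of 25 markers (4%) against 8.58% of all genes tested. It was at 82.0, 96.7 and 72.8 against 46.0, 50.3 and 45.1 RPKM, low in all 3 sg*Kmt2c* lines to a like degree (log2 fold change −0.81, adjusted p = 0.328 from limma). Of the 25 markers, 22 had a log2 fold change below 0, and 12 without replicate 1.

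**Figure D4:**
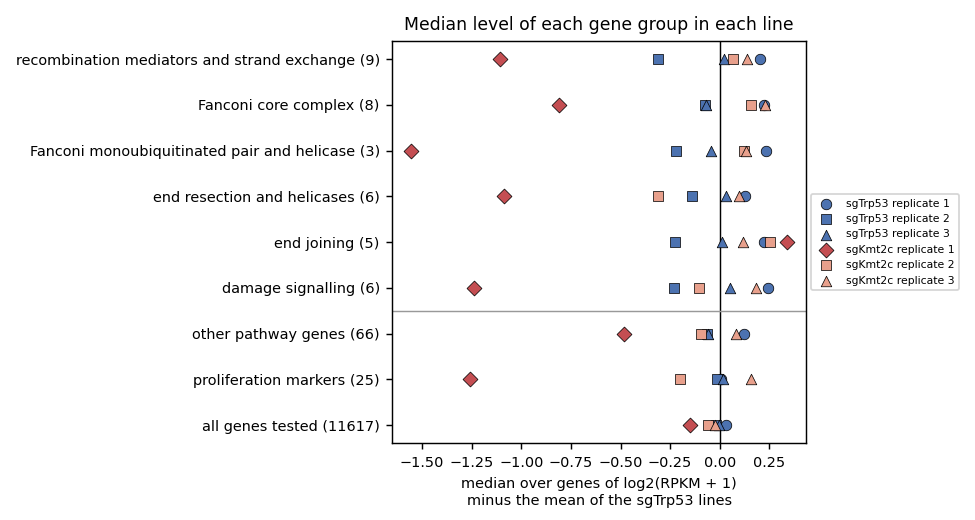
Median over the genes of each group of log2(RPKM + 1) minus the mean of the sgTrp53 lines (x axis), for the 6 role groups of the repair genes, 66 other genes of the same pathways, 25 proliferation markers and all genes tested; each symbol is 1 line and the number of genes stands in brackets. Sg*Kmt2c* replicate 1 is at −1.56 to −0.81 in 5 role groups, at 0.34 for end joining, at −1.26 for the proliferation markers and at −0.15 for all genes.

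Among 66 other genes of these pathways, 6 passed an unadjusted p-value of 0.05 (9.09%, against 8.58% of all genes) and none the adjusted threshold (limma; the smallest adjusted p-value was 0.478). Of the 66, 34 were lowest in sg*Kmt2c* replicate 1, among them 13 of 17 further recombination genes, 5 of 11 of Holliday junction processing, 3 of 8 Fanconi accessory genes, 8 of 13 of signalling, 5 of 10 further end joining genes and 0 of 7 genes of the BRCA1-A complex and chromatin ubiquitination. The 10 further end joining genes did not share the sign of the 5 described above: 5 were above 0 and 5 below, with a median log2 fold change of −0.06. Over the 66 genes 47 were below 0, and 33 without sg*Kmt2c* replicate 1. In each of the 6 past the unadjusted threshold, which were picked by p-value, the lines of the genotypes were separate. Over the 66 genes, 7 were lower and 5 higher without overlap, where the shares over all genes were 10.4% and 5.72%. *Rnf8*, the ubiquitin ligase that acts directly after MDC1, was at 4.11, 4.25 and 5.24 RPKM with sg*Trp53* and at 2.35, 1.96 and 2.37 RPKM with sg*Kmt2c* (log2 fold change −0.78, unadjusted p = 0.0165, adjusted p = 0.478 from limma). *Trp53bp1*, whose product 53BP1 shields ends from resection, was at 9.03, 17.3 and 10.9 against 8.26, 6.14 and 6.17 RPKM (log2 fold change −0.74). Neither gene had its lowest level in sg*Kmt2c* replicate 1. *Swi5*, an accessory factor of recombination, and *Wdr48*, a cofactor of the enzyme that removes ubiquitin from FANCD2, had log2 fold changes of −0.49 and −0.53. *Slx1b*, a structure-specific nuclease, was among the higher genes (log2 fold change 0.64).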

How the data were processed

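Adaptors were removed with Trimmomatic, STAR mapped the reads to GRCm38 (mm10) and HTSeq counted them. The authors deposited the result as RPKM, dividing by 1 listed transcript length per gene. The table has 21065 rows, 209 without values, and 6 further sample columns that were not used. A deposited table of the authors' DESeq2 1.8.2 comparison (mean counts, fold changes, p-values) was not used. RPKM multiplied by transcript length gave whole reads for 100% of values (tolerance 0.01 read). One read on a transcript of 2 kb was worth 0.0726 to 0.136 RPKM.

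Groups and replicate numbers were taken from the labels, which call the lines independent; p-values measure the spread between these lines. All libraries shared the same 2 lanes of 1 flow cell. Genotypes were compared with limma 3.58.1 (R 4.3.3, lmFit and eBayes with trend) on log2(RPKM + 1) for genes with at least 1 RPKM in at least 3 of 6 libraries, with Benjamini-Hochberg adjustment. The code was run on simulated counts that had the same dispersion for every gene and no divergent line. That run does not show how the test behaves with the spread among the sg*Kmt2c* lines. A fold change on this scale understates the change of low genes. Exact permutation tests were two-sided. Because the deposited unit is RPKM, limma on the log scale was the main test, with limma voom on the recovered reads as an alternative. The 37 genes, the role groups, the 66 other pathway genes, the 25 proliferation markers and the cell type markers were chosen with earlier results of these data known. Named are all 37 genes, the other genes with an unadjusted p-value under 0.05 (at most 5 per list and direction; 1 is not reported here), and *Trp53* and *Kmt2c* as targets. Names of single cell type markers and of genes that overlap those described were added after their values were seen. *Cdkn2a*, named by the same rule, was at 405, 451 and 424 RPKM in sg*Trp53* and at 21.2, 49.3 and 51.3 RPKM in sg*Kmt2c*. Alternatives changed the pseudocount (0.1, 0.5), the filter, the scaling, the moderation, the count model (limma voom), the replicate block and the lines included. Transcript lengths were compared with GENCODE M1 coding transcripts by length only. Promoter sequences are from RefSeq (GRCm38.p6). Plots were drawn with matplotlib 3.10.9.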

Additional observations from a re-analysis of the deposited data

How the results depend on the processing

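Under every alternative run, 0 of the 37 genes passed the adjusted threshold, with a smallest adjusted p-value of 0.325 to 0.940 over the settings. With 3 lines per genotype, the depths given and the spread among the sg*Kmt2c* lines, differences may have been missed. The smallest difference that could be detected was not estimated. The number of genes past an unadjusted p-value of 0.05 was 1 higher (*Fancl*) under quantile normalization and 1 lower (*Mdc1*) with sg*Kmt2c* replicates 2 and 3 counted as 1 sample, and 0 in the other fits that kept all lines. Over all genes, 967 of 11617 passed it under quantile normalization and 1014 of 11436 with these replicates as 1 sample, in either direction (limma). Genes without overlap numbered 2 higher and 1 lower under median-of-ratios scaling, quantile normalization and limma voom, 1 lower among the 29 genes tested with a mean of at least 5 RPKM, and 1 higher and 6 lower with replicates 2 and 3 as 1 sample. The shares over all genes were not counted in these settings, so these numbers are not a result about the 37 genes. Fewer samples also make a lack of overlap more frequent in genes of any kind. *Atr* turned to 0.0513 under median-of-ratios scaling, 0.0485 with limma voom and 0.0115 under quantile normalization, and *Xrcc6* turned to −0.00689 with replicates 2 and 3 as 1 sample. The cause of these changes was not tested.

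Leaving out single lines, the genes past an unadjusted p-value of 0.05 numbered 0 to 1 higher and 0 to 5 lower (5 without sg*Kmt2c* replicate 3), and those without overlap 0 to 3 higher and 2 to 11 lower. Over all genes, 497 of 11281 (without sg*Trp53* replicate 3) to 1448 of 11382 (without sg*Kmt2c* replicate 3) passed it in either direction (limma). The share of all genes lower without overlap moved too: 10.4% with all lines, 15.9% without sg*Kmt2c* replicate 1 and 21% without replicate 3. It was not counted for the other lines, so the ranges partly follow the number of lines. The median log2 fold change over the 37 genes lay between −0.49 and 0.10. The ranges of genes whose sign turned were −0.78 to 0.0420 for *Brca1*, −0.52 to 0.12 for *Brca2*, −0.61 to 0.0801 for *Xrcc2*, −0.0360 to 0.20 for *Xrcc3*, −0.0945 to 0.36 for *Xrcc6*, −0.0787 to 0.44 for *Bard1*, −0.49 to 0.10 for *Fancb*, −0.51 to 0.13 for *Fancd2*, −0.55 to 0.0693 for *Fancg*, −0.85 to 0.27 for *Fanci*, −0.70 to 0.11 for *Fancm*, −0.75 to 0.37 for *Atm*, −0.17 to 0.24 for *Atr*, −0.48 to 0.21 for *Chek1*, −0.28 to 0.11 for *Rad50*, −1.02 to 0.0290 for *Nbn*, −0.80 to 0.15 for *Blm* and −0.20 to 0.19 for *Prkdc*. Over all genes tested, the number past the adjusted threshold was 15 with all lines, 3 with limma voom, 7 without sg*Kmt2c* replicate 1 and 0 without any other single line.

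The deviations of same-numbered lines from their group means correlated at r = 0.19, 0.40 and 0.03. Differently numbered lines were not set beside them, so these values cannot show whether the numbers are a pairing. Because the labels call the lines independent, the main fit used no pairing. With the replicate number as a block, 0 of the 37 genes passed either threshold, and over all genes 0 passed the adjusted and 1085 the unadjusted one.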
